A study of Mus musculus with 10 samples.

Results

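Fbp1, Pam, Plbd1, Pla2g12a, Pttg1, Arcn1, Atp7a and Glo1 were chosen by the size of their signal difference between 2 mouse strains in earlier results from these arrays. They are 8 of the 8252 genes that the array's annotation names by a single symbol. Every probe set annotated to one of them alone was used, 14 of the 12488 on the array. Of these, 12 passed the filter on dim probe sets and were tested, and the other 2, Pttg1 101026_at and Arcn1 94513_r_at, lay below it. Because the strain difference chose the genes, it is described here without a test. The question put to the data was whether that difference was the same without and with noise.

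RNA came from the cochlea of female mice aged 10 weeks, per the labels from the microdissected membranous labyrinth, and each array carried RNA pooled from 8 mice. B6.CAST is a congenic strain on a C57BL/6J background with a segment from CAST mice around Cdh23, and 129X1/SvJ is an inbred strain that resists noise damage. The noise was an octave band at 10 kHz, given at 105 dB SPL during 1 h, and tissue was taken 6 h after it ended. Control mice had a sham stay in the chamber. The groups were B6.CAST noise (2 arrays), B6.CAST control (2 arrays), 129X1/SvJ noise (3 arrays) and 129X1/SvJ control (3 arrays). Because each array is a pool, mice within it are not seen separately, and the number of arrays limits the precision.

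The 8 genes belong to different parts of cell biology. Fbp1 encodes fructose-1,6-bisphosphatase, an enzyme of gluconeogenesis, and Glo1 encodes glyoxalase I, which clears methylglyoxal, a reactive by-product of glycolysis, with the help of glutathione. Pam encodes the copper-dependent enzyme of the secretory pathway that amidates the carboxyl end of peptide hormones, and Atp7a encodes the pump that brings copper into that pathway and so loads enzymes such as Pam. Plbd1 encodes a phospholipase B-like protein of lysosomes, and Pla2g12a a secreted phospholipase A2. Pttg1 encodes securin, which holds back the protease separase until sister chromatids part. Arcn1 encodes the delta subunit of coatomer, the coat of vesicles that return from the Golgi to the endoplasmic reticulum.

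The promoters of Fbp1, whose signal was far lower in B6.CAST, and of Pttg1, whose signal was far higher there, are shown as the gene sequences nearest to the start of transcription, since the probe sequences were not used here. Both are the 250 bases before the RefSeq start on GRCm38.p6, the C57BL/6J reference, read 5′ to 3′ on the gene's strand. The Fbp1 promoter is at chr13:62888283-62888532 on the minus strand and that of Pttg1 at chr11:43425982-43426231 on the minus strand. Capitals mark matches, on either strand, to the CCAAT box (CCAAT) and the GC box (GGGCGG). The TATA box (TATAAA) was also searched and has no match in either window, and the motifs found do not overlap each other.
Fbp1: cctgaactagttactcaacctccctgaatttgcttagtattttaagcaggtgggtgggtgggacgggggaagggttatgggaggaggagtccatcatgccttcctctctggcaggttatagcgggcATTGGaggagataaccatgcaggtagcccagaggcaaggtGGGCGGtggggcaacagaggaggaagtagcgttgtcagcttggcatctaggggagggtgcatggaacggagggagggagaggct
Pttg1: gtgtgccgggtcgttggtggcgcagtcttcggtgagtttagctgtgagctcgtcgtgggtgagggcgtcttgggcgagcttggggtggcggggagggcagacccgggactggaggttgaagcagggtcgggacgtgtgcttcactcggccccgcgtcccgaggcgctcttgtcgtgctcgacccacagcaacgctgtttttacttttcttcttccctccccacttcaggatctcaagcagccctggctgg
The Fbp1 window holds 1 CCAAT match, whose first base lies at -124, and 1 GC box match at -84, counted from the start. Of all 32851 promoter windows of this length, 33.8% hold CCAAT, 32.7% GGGCGG and 12.4% TATAAA, so these matches are common. The Pttg1 window holds none of the 3 motifs and has 63.6% G and C, against 56.4% for Fbp1.

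The arrays were alike in most respects. Mean correlations of an array with the other 9 arrays ranged from 0.910, on the first noise array of 129X1/SvJ, to 0.955. For Gapdh the signal of the 3′ control probe set was 6.94 times that of the 5′ one on B6.CAST noise array 1 and 29.2 times on 129X1/SvJ control array 2, against 0.790 to 1.40 times on the rest, a measure that follows RNA quality. Of 12 cochlear marker genes on the array all 12 passed the filter, among them Coch at a signal of 12604 to 20801 and the connexin gene Gjb2 at 9075 to 24581. Nnt, deleted in part in C57BL/6J, had a strain gap of -0.58 ± 0.24 with noise and of -0.81 ± 0.24 without it on the log2 scale (SE). It did not pass in limma with Benjamini-Hochberg adjustment (adjusted p = 0.393 and 0.215), so it does not by itself settle the strain labels.

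Signals below are the deposited linear intensities. A strain gap is B6.CAST minus 129X1/SvJ in mean log2(intensity + 16) after quantile normalization, with its standard error from a limma fit over all 10 arrays (n = 2 and 3 arrays). Signals of different probe sets depend on their probes, so levels are compared between arrays and never between genes.

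Fbp1 had the widest gap in control mice among the 8 genes. Its signals were 51.2 and 16 on B6.CAST noise arrays and 31.0 and 18.4 on B6.CAST control arrays, against 360, 368 and 294 on 129X1/SvJ noise arrays and 637, 587 and 607 on 129X1/SvJ control arrays. Each B6.CAST array was below each 129X1/SvJ array, and 3 of the 4 B6.CAST values lay under 42.9, the signal at the filter on dim probe sets. The gap was -2.84 ± 0.33 with noise and -3.88 ± 0.33 without it. Because the B6.CAST signals are so dim, the size of the gap depends on the constant added before the log. In control mice it was -4.50 with a constant of 1 and -2.89 with a constant of 64.

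Glo1 was measured by a pair of probe sets, both bright in all groups and both lower in B6.CAST. Probe set 93269_at gave 1462 and 1964 on B6.CAST noise arrays and 2102 and 1935 on B6.CAST control arrays, against 2957, 3739 and 3570 on 129X1/SvJ noise arrays and 3910, 3962 and 4187 on 129X1/SvJ control arrays. The strains did not overlap on it, and its gap was -1.0 ± 0.16 with noise and -1.01 ± 0.16 without it. Mean signals in 129X1/SvJ were 2.0 times those in B6.CAST with noise and 1.99 times without it. Probe set 93268_at had a smaller gap, -0.65 ± 0.19 with noise and -0.45 ± 0.19 without it, with signals of 824 to 1398 in B6.CAST and 1386 to 1921 in 129X1/SvJ that overlapped in range across conditions. The pair followed each other over the 10 arrays with a Pearson correlation of 0.93.

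Pam was lower in B6.CAST as well. Its probe set gave 150 and 259 on B6.CAST noise arrays and 384 and 175 on B6.CAST control arrays, against 1093, 1350 and 1814 on 129X1/SvJ noise arrays and 2726, 2578 and 1866 on 129X1/SvJ control arrays. All 4 B6.CAST arrays were below all 6 arrays of 129X1/SvJ. The gap was -2.70 ± 0.30 with noise and -3.07 ± 0.30 without it. Set against the 129X1/SvJ mean of the same condition, the single B6.CAST arrays lay at -2.98 and -2.43 with noise and at -2.60 and -3.53 without it, so arrays of 1 condition differed from each other by more than the conditions did.

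Atp7a, which supplies Pam with copper, had the opposite sign, and both of its probe sets agreed on that. The brighter one, 160609_at, gave 279 and 335 on B6.CAST noise arrays and 346 and 264 on B6.CAST control arrays, against 345, 103 and 103 on 129X1/SvJ noise arrays and 97.7, 21.3 and 94.5 on 129X1/SvJ control arrays. The strains did not overlap in control mice and did overlap with noise, where the first noise array of 129X1/SvJ, the one that correlated least with the others, was as bright as B6.CAST. The gap was 0.96 ± 0.52 with noise and 1.99 ± 0.52 without it, and without that array the noise gap was 1.51. The other probe set, 102854_s_at, gave 180 and 223 on B6.CAST noise arrays and 256 and 121 on B6.CAST control arrays, against 98.4, 38.4 and 16.9 on 129X1/SvJ noise arrays and 28.1, 3.4 and 19.4 on 129X1/SvJ control arrays. Its gap was 2.02 ± 0.46 with noise and 2.63 ± 0.46 without it, and in control mice it was 3.62 with an added constant of 1 and 1.61 with one of 64. Over the 10 arrays the pair had a correlation of 0.93.

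Plbd1 was lower in B6.CAST with little spread between arrays. Its signals were 234 and 224 on B6.CAST noise arrays and 377 and 274 on B6.CAST control arrays, against 1904, 1661 and 2307 on 129X1/SvJ noise arrays and 1908, 1801 and 1566 on 129X1/SvJ control arrays. The strains did not overlap, and within B6.CAST both noise arrays were below both control arrays. The gap was -3.01 ± 0.19 with noise and -2.37 ± 0.19 without it. Mean signals in 129X1/SvJ were 8.55 times those in B6.CAST with noise and 5.41 times without it. Plbd1 is known from myeloid cells, and markers of neutrophils also differed in sum with noise. By limma 1 of 14 neutrophil markers passed with noise, Chil3 at -3.24 ± 0.60 (limma adjusted p = 0.0211), and 0 without it. The gap of these markers was above 0 for 1 of the 14 with noise and for 12 without it. The summed signal of 14 neutrophil markers, none of them at 0, was 3029 to 3180 on B6.CAST noise arrays and 6672 to 21292 on B6.CAST control arrays, against 13673 to 39801 on 129X1/SvJ noise arrays and 4054 to 22648 on 129X1/SvJ control arrays. In control mice the neutrophil sums of the strains overlapped and the Plbd1 signals did not. The part of these cells in the Plbd1 gap was not tested in either condition. In pooled tissue, fewer cells of a type and less RNA per cell cannot be told apart.

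Pla2g12a was higher in B6.CAST, but on 1 of its probe sets far more than on the other. Probe set 104343_f_at gave 4011 and 5803 on B6.CAST noise arrays and 3904 and 5319 on B6.CAST control arrays, against 498, 704 and 507 on 129X1/SvJ noise arrays and 598, 652 and 737 on 129X1/SvJ control arrays. The strains did not overlap, and the gap was 3.07 ± 0.23 with noise and 2.76 ± 0.23 without it. Probe set 104342_i_at, annotated to the same source sequence, gave 391 and 209 on B6.CAST noise arrays and 313 and 279 on B6.CAST control arrays, against 150, 148 and 254 on 129X1/SvJ noise arrays and 273, 279 and 138 on 129X1/SvJ control arrays. Its strains overlapped and its gap was 0.75 ± 0.40 with noise and 0.40 ± 0.40 without it, which is 24.5% and 14.6% of the gap on the brighter probe set. Single arrays moved this gap: with noise it was 0.26 without B6.CAST noise 1 and 1.25 without noise 2, and in control mice 0.073 without 129X1/SvJ control 3. The correlation of the pair over the 10 arrays was 0.47.

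Pttg1 had nearly the same gap in both conditions. Its probe set 101027_s_at gave 1973 and 1914 on B6.CAST noise arrays and 1790 and 2028 on B6.CAST control arrays, against 378, 385 and 299 on 129X1/SvJ noise arrays and 346, 308 and 393 on 129X1/SvJ control arrays. Each B6.CAST array was above each 129X1/SvJ array. The gap was 2.44 ± 0.18 with noise and 2.38 ± 0.18 without it, and mean signals in B6.CAST were 5.49 times those in 129X1/SvJ with noise and 5.47 times without it. The dim probe set 101026_at ran the same way, with 51.3 and 44.9 on B6.CAST noise arrays and 63.9 and 45.5 on B6.CAST control arrays, against 4.0, 5.0 and 3.8 on 129X1/SvJ noise arrays and 1.2, 8.4 and 25.3 on 129X1/SvJ control arrays. It did not pass the filter, and it correlated with the other at 0.93.

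Arcn1 was higher in B6.CAST, by far the most on 1 of its 3 probe sets. Probe set 94514_s_at gave 1060 and 781 on B6.CAST noise arrays and 1150 and 824 on B6.CAST control arrays, against 15.7, 25.0 and 126 on 129X1/SvJ noise arrays and 136, 108 and 34.8 on 129X1/SvJ control arrays. The strains did not overlap, and the values within 129X1/SvJ were spread widely. Of the 6 signals in 129X1/SvJ, 3 lay under 42.9, the signal at the filter. The gap was 4.13 ± 0.66 with noise and 3.30 ± 0.66 without it, and 3.17 with noise and 2.76 without it when the added constant was 64. Probe set 94512_f_at had 104 and 103 on B6.CAST noise arrays and 150 and 91.6 on B6.CAST control arrays, against 16.7, 50.4 and 68.7 on 129X1/SvJ noise arrays and 92.2, 94.2 and 57.6 on 129X1/SvJ control arrays. Its gap was 1.22 ± 0.46 with noise and 0.45 ± 0.46 without it, 29.5% and 13.5% of that on the brightest probe set. The third, 94513_r_at, stayed at 8.5 to 29.5 in all groups, below the filter.

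**Figure D1:**
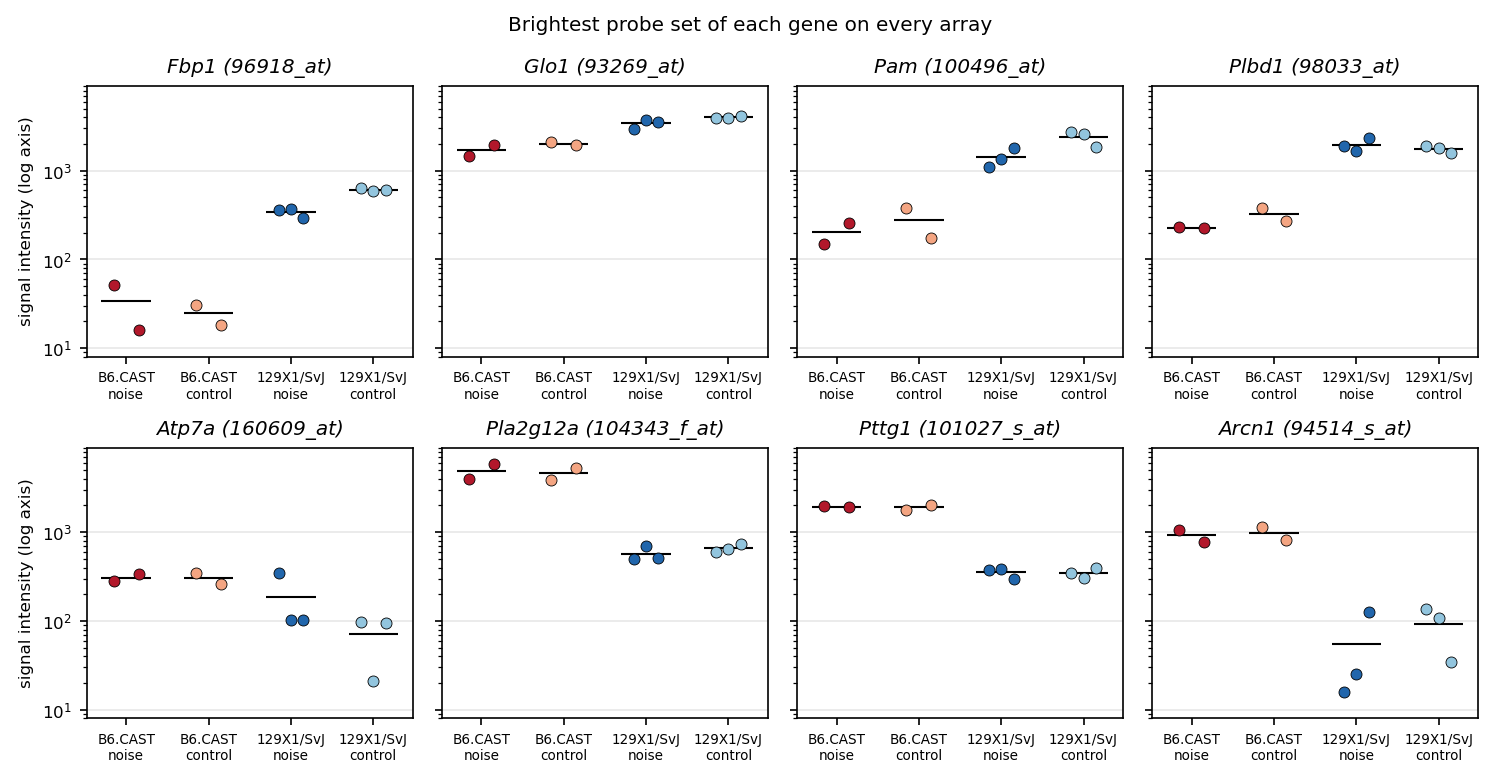
Signal intensity, on a log axis, of the brightest probe set of each gene on each of the 10 arrays, by group; points are arrays and bars are group means. Fbp1, Glo1, Pam and Plbd1 were lower in B6.CAST than in 129X1/SvJ on every array, and Pla2g12a, Pttg1 and Arcn1 higher, while the first noise array of 129X1/SvJ brought Atp7a to 345, into the range of B6.CAST.

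Probe sets of 1 gene thus differed in how far they showed a gap, though all 12 tested ones kept the sign of their own gap in both conditions. The suffixes s, f, i and r are the array maker's marks for probe sets that may match related sequences or that met fewer of its design rules. The probe sets with the largest gaps of Pla2g12a, Arcn1, Atp7a and Pttg1 carry such a suffix, so part of their signal may come from other transcripts, and this was not tested. Those of Fbp1, Pam, Plbd1 and Glo1 carry none. Whether the strains differ in sequence under the probes was not examined for any of these genes, with or without a suffix.

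**Figure D2:**
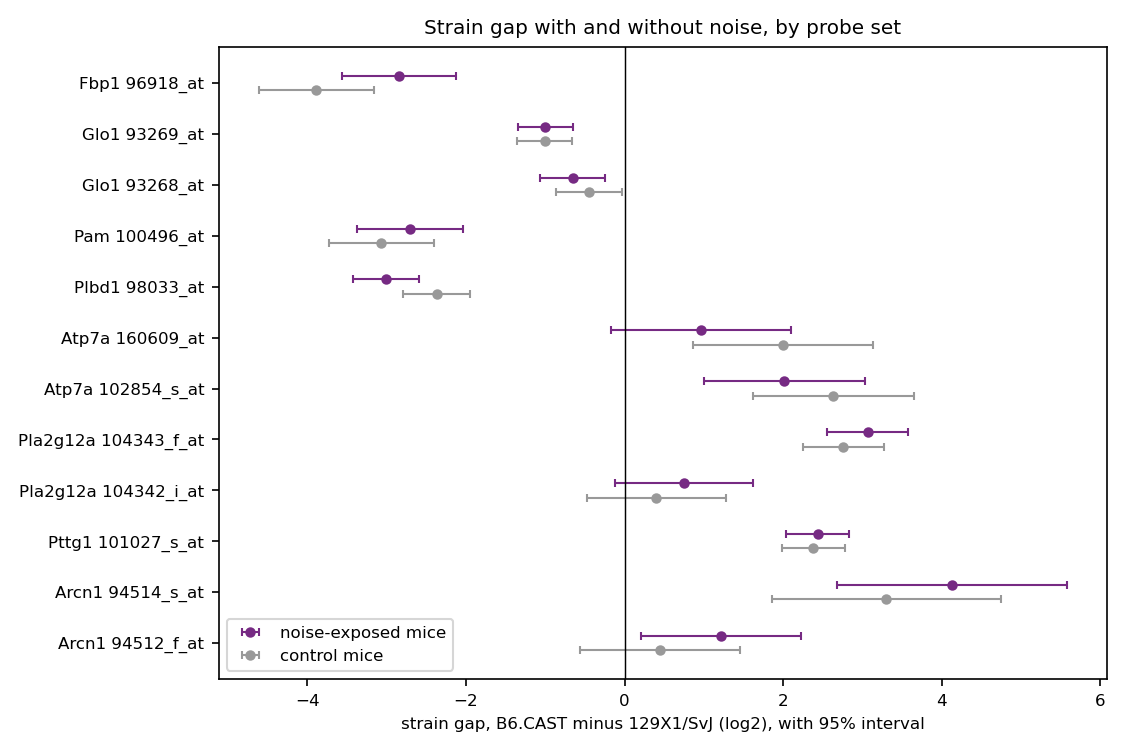
Strain gap (B6.CAST minus 129X1/SvJ, log2) of the 12 tested probe sets in noise-exposed and in control mice; points are limma estimates and bars their 95% intervals. The points of noise-exposed and control mice share their sign for all 12 probe sets. The intervals of 1 gene's probe sets can differ, as for Pla2g12a with 3.07 on one and 0.75 on the other with noise. The genes were picked for large gaps on these arrays, so neither the intervals nor the shared sign is a test.

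The difference of the gaps, that of noise-exposed mice minus that of control mice, addresses whether the gaps were the same without and with noise. The gap was smaller with noise for 5 of the 12 probe sets and larger for 7. The median absolute difference was 0.49 over the 12 and 0.23 over all tested probe sets. It is built from the same gaps that the genes were picked for. No probe set on the array passed in limma with Benjamini-Hochberg adjustment (0 of 8695, or 0%), and so none of the 12 did, each with adjusted p = 0.997. An unadjusted p under 0.05 was found for 258 of all and for 2 of the 12. With so few arrays, changes of the gap by 1 on the log2 scale could not be told from none for the more variable genes.

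The narrowest interval was that of Glo1 93269_at, whose gap differed by 0.0063 ± 0.22 between conditions (95% interval -0.49 to 0.50). Pttg1 101027_s_at came next with 0.054 ± 0.25 (-0.50 to 0.61). Without single arrays these values ran from -0.23 to 0.24 for Glo1 93269_at and from -0.060 to 0.13 for Pttg1 101027_s_at. For both genes the interval holds 0 and leaves out a change of the gap as large as 1. The interval for Pam, 0.36 ± 0.43 (-0.58 to 1.30), and that for Pla2g12a 104343_f_at, 0.31 ± 0.33 (-0.41 to 1.03), hold 0 and reach beyond 1. The widest were those of Arcn1 94514_s_at, 0.83 ± 0.93 (-1.22 to 2.87), and Atp7a 160609_at, -1.03 ± 0.73 (-2.63 to 0.58), which span both no change and a change larger than 2. Without single arrays the difference ran from 0.33 (without 129X1/SvJ noise 1) to 1.55 (without noise 3) for Arcn1 94514_s_at, and for Atp7a 160609_at it was -0.51 without 129X1/SvJ noise 1. Without both arrays of high Gapdh ratio, chosen after seeing the data, the difference for Atp7a 160609_at was -0.47. For Pam it was -0.098 without B6.CAST control 2 and 0.82 without control 1, and for Pla2g12a 104343_f_at 0.61 without B6.CAST noise 1 and 0.0033 without noise 2.

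Fbp1 and Plbd1 were the 2 with an interval that does not hold 0, though neither passed after adjustment. For Fbp1 the gap was smaller with noise, by 1.04 ± 0.47 on the log2 scale (95% interval 0.018 to 2.06, unadjusted p = 0.0467 in limma). It was made up of noise effects of 0.21 ± 0.36 in B6.CAST and -0.83 ± 0.29 in 129X1/SvJ. Single B6.CAST noise arrays moved the difference, to 0.40 without the first, which had the Gapdh ratio of 6.94, and 1.67 without the second. The noise effect of Fbp1 in B6.CAST was -0.43 without the first and 0.84 without the second. For Plbd1 the gap was wider with noise, at -0.64 ± 0.27 (-1.23 to -0.046, unadjusted p = 0.037 in limma), and leaving out single arrays gave values between -0.81 and -0.46.

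The noise effects behind these differences were tested in each strain. The genes were not picked for them, but they use the same arrays as the strain gaps. In 129X1/SvJ 0 of the 12 probe sets passed in limma, where 0.506% of all were called. In the same fit 4 of the 12 had an unadjusted p under 0.05, against 1003 of all 8695. Noise and control arrays did not overlap for 4 of the 12, where 15.8% of all tested probe sets did not. For Fbp1 each of the 3 noise arrays (294 to 368) was below each control array (587 to 637), with a noise effect of -0.83 ± 0.29 (limma adjusted p = 0.363, unadjusted p = 0.0164, n = 3 and 3 arrays). For Pam the noise arrays (1093 to 1814) were also below the control arrays (1866 to 2726), with -0.73 ± 0.27 (limma adjusted p = 0.377). Glo1 93269_at had -0.23 ± 0.14 (limma adjusted p = 0.534) with no overlap either. Atp7a 160609_at was the one without overlap in the other direction, at 1.05 ± 0.46 (limma adjusted p = 0.428). It was at 0.53 without the first noise array and at 0.56 without both arrays of high Gapdh ratio. Pttg1 101027_s_at had a noise effect of -0.019 ± 0.16 and Plbd1 one of 0.19 ± 0.17.

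In B6.CAST 0 of the 12 passed in limma, where 0.046% of all were called. In that fit 0 of the 12 had an unadjusted p under 0.05, against 183 of all 8695. The effects ran from -0.45 ± 0.21 for Plbd1 to 0.21 ± 0.36 for Fbp1 (n = 2 and 2 arrays). Only Plbd1 had noise arrays apart from control arrays, and with 2 arrays in each group 28.6% of all tested probe sets were apart. The interval for Pttg1 101027_s_at ran from -0.40 to 0.47 around 0.035, and that for Glo1 93269_at from -0.61 to 0.15 around -0.23. The signals of Fbp1 in B6.CAST, 16 to 51.2, lay around the filter at 42.9, which is a cut on mean signal and not a measured detection limit. Whether a lower level could be resolved there was not tested.

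**Figure D3:**
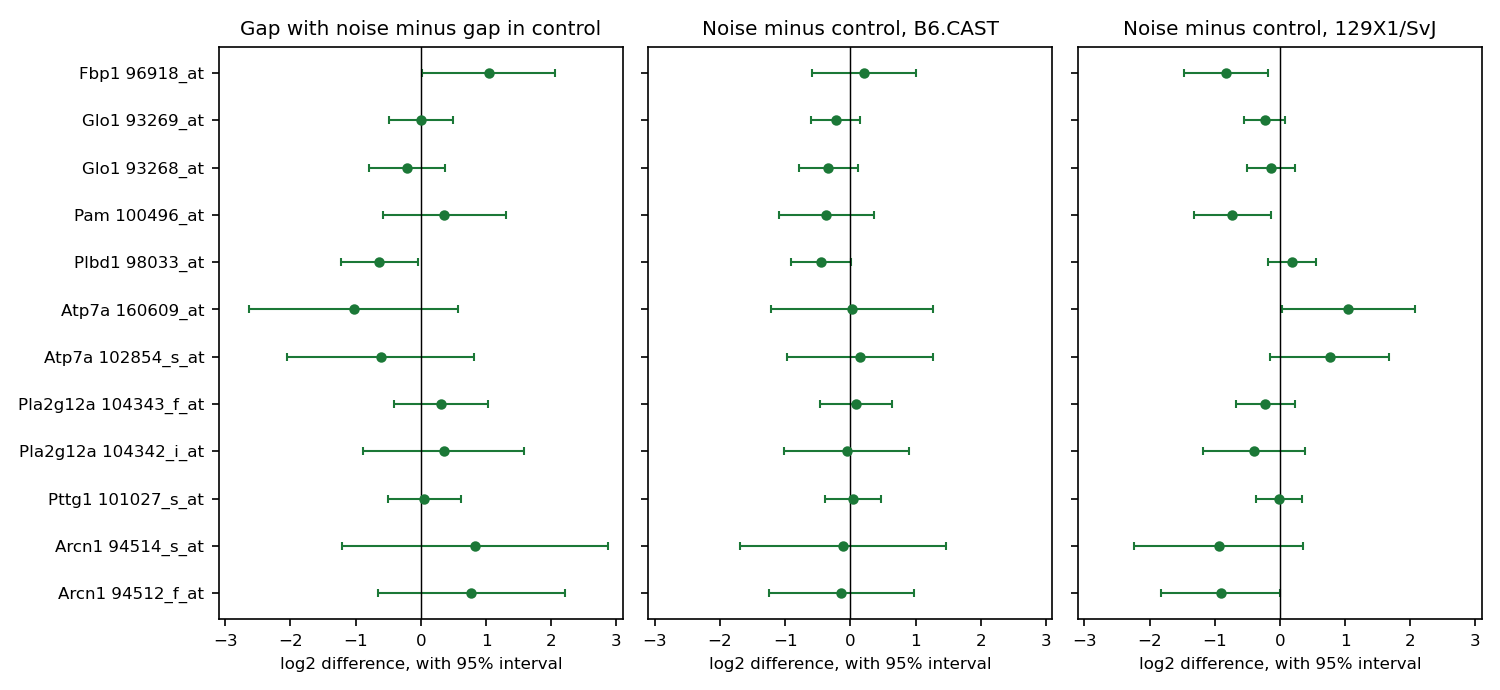
From left to right, the gap with noise minus the gap in control mice, the noise effect in B6.CAST and the noise effect in 129X1/SvJ, all on the log2 scale with 95% intervals, for the 12 tested probe sets. In the left panel the intervals of Fbp1 (0.018 to 2.06) and Plbd1 (-1.23 to -0.046) lie to either side of 0 and the other 10 hold it.

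The genes with the most similar pattern were found by Pearson correlation of log2 values over the 10 arrays, taking the 3 closest for the brightest probe set of each gene. All such correlations rest on the same arrays and mostly on the strain. Pla2g12a and Pttg1 were close to each other (0.990), and so were Pam and Glo1 (0.980). Fbp1 was closest to Il3ra, a receptor chain for interleukin 3 (0.986), to Fxyd2, which regulates the sodium pump (0.98), and to Gdpd3 (0.962). Il3ra had gaps of -1.23 with noise and -2.03 without it, and Fxyd2 gaps of -1.72 with noise and -2.33 without it. Plbd1 was closest to Gdpd3, a lysophospholipase D (0.976), whose gaps were -2.25 with noise and -2.17 without it. After Pam, Glo1 was closest to the Wnt inhibitor Sfrp1 (0.971). Arcn1 was closest to the SUMO protease gene Senp6 (0.988), and Atp7a to the Golgi GTPase gene Rab6a (0.968), with gaps of 1.85 with noise and 3.29 without it. After these, Pttg1 was close to Pkig, an inhibitor of protein kinase A (0.987), and Pla2g12a to the kinase gene Prkd1 (0.987). The rest of the closest were Thrsp and Ocel1 for Pam, Ocel1 and Klk1b22 for Plbd1, Ocel1 for Glo1, Tmem45a and Ablim1 for Arcn1, Gpx2 and Tex261 for Atp7a, and for Pla2g12a and Pttg1 a probe set annotated to Mir686, with correlations of 0.958 to 0.991.

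In the chromosome neighbourhood most genes showed no such gap. The 5 nearest measured genes on each side of the 8 genes, 80 in all by the RefSeq order of GRCm38.p6, had a median absolute gap of 0.19 with noise and 0.20 without it, close to the 0.21 of all tested probe sets in either condition. Taken gene by gene, the medians with noise ran from 0.043 near Atp7a to 0.51 near Plbd1. Without noise they ran from 0.15 near Pttg1 to 0.32 near Arcn1. In noise-exposed mice 4 of the 80 were called, where 1.45% of all were. In control mice 1 of the 80 was called, where 0.92% of all were. Fbp2, the muscle paralogue next to Fbp1 on chromosome 13, had a gap of 0.19 with noise and -0.59 without it and was not called. On chromosome 9 Fxyd2, the fifth measured gene from Arcn1, was called in both conditions, at -1.72 ± 0.15 with noise and -2.33 ± 0.15 without it, opposite in sign to Arcn1. Near Plbd1 on chromosome 6, Emp1, an epithelial membrane protein gene, and Hebp1, a heme-binding protein gene, had gaps of -1.11 ± 0.16 and -1.39 ± 0.25 with noise, where both passed, and of -0.63 ± 0.16 and -0.83 ± 0.25 without it, where neither did. Near Glo1 on chromosome 17 the kinase gene Pim1 had -1.14 ± 0.20 with noise and -0.25 ± 0.20 without it.

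**Figure D4:**
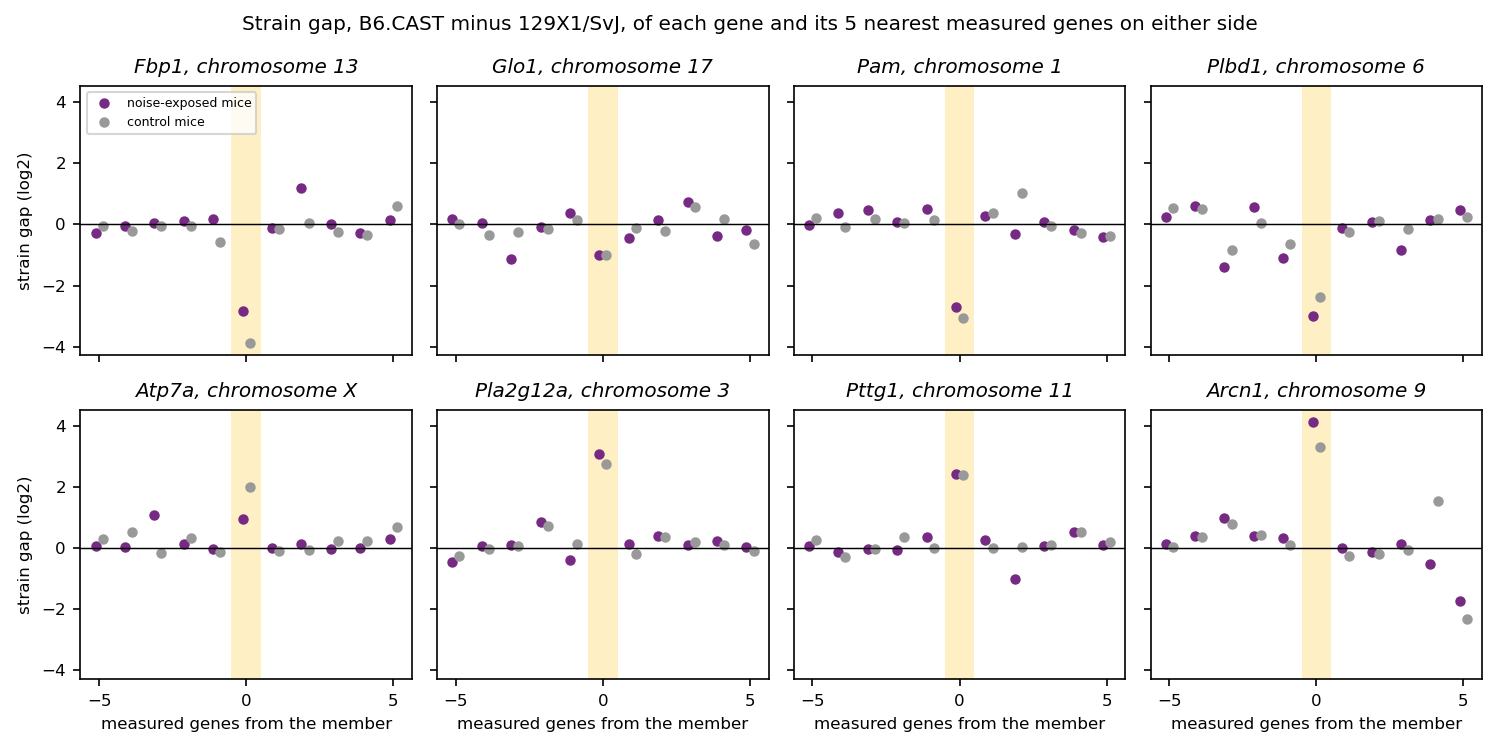
Strain gap (log2, B6.CAST minus 129X1/SvJ) in noise-exposed and control mice of each gene, in the shaded column, and of its 5 nearest measured genes on either side, ordered by position. Most neighbours lie near 0. Fxyd2, the fifth gene to the right of Arcn1, lies at -2.33 in control mice, and with noise Pim1, at -1.14, lies lower than Glo1.

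Other genes of the same pathways, from lists made with earlier results of these data known, passed in 1 case only, Pla2g7 with noise. Of 23 tested enzymes of gluconeogenesis and glycolysis other than Fbp1, 0 passed in either condition, and the median gap was 0.0083 with noise and -0.095 without it. The smallest p in control mice was that of the enolase gene Eno2, at -0.43 ± 0.17 (unadjusted p = 0.0311, limma adjusted p = 0.380), and the phosphofructokinase gene Pfkl followed at -0.51 ± 0.26. Of 16 genes of carbonyl detoxification, 0 passed, and Hagh, which encodes glyoxalase II, the enzyme that takes over from Glo1, had 0.53 ± 0.14 with noise and 0.48 ± 0.14 without it, against the sign of Glo1. The aldehyde dehydrogenase gene Aldh3a1 had -0.48 ± 0.23 with noise and -0.61 ± 0.23 without it. Of 12 other genes of peptide hormone processing 0 passed, with Pcsk6, a proprotein convertase, at -0.026 ± 0.75 with noise and 1.86 ± 0.75 without it, and the carboxypeptidase D gene Cpd at 0.022 ± 0.22 with noise and 0.52 ± 0.22 without it. Of 17 copper genes 0 passed, and the copper importer Slc31a1 had 0.53 ± 0.19 with noise and 0.54 ± 0.19 without it. Ceruloplasmin (Cp), which carries copper in blood, had -0.20 ± 0.14 with noise and -0.34 ± 0.14 without it.

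Among 12 other phospholipases 1 passed, Pla2g7, which breaks down platelet-activating factor. It was higher in B6.CAST by 0.97 ± 0.19 with noise (limma adjusted p = 0.0272) and had 0.82 ± 0.19 without it (limma adjusted p = 0.0804). Of 21 genes of securin's partners, cohesin and anaphase 0 passed, and the spindle checkpoint gene Bub3 had 0.11 ± 0.13 with noise and 0.43 ± 0.13 without it. The mitotic kinase gene Plk1 had -0.056 ± 0.23 with noise and -0.54 ± 0.23 without it. Of 22 coatomer and COPI traffic genes 0 passed, with medians of 0.10 with noise and -0.0064 without it. The vesicle fusion gene Sec22b had -0.074 ± 0.15 with noise and -0.41 ± 0.15 without it, and another, Bet1, had 0.088 ± 0.33 with noise and 0.78 ± 0.33 without it. The noise effect passed for 0 genes of these 7 lists in either strain by limma, while 0 to 5 genes of a list had an unadjusted p under 0.05. Over all 8695 probe sets 1003 had such a p in 129X1/SvJ and 183 in B6.CAST.

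The summed signals of some marker lists differed between the strains without overlap. The sum of 5 melanocyte markers was 14142 to 16234 on B6.CAST noise arrays and 14173 to 15016 on B6.CAST control arrays, against 7513 to 9428 on 129X1/SvJ noise arrays and 8703 to 10033 on 129X1/SvJ control arrays. Of these 5, 1 passed with noise (Dct, 0.78 ± 0.13, limma adjusted p = 0.0144) and 0 without it by limma, and the gap was above 0 for 5 with noise and 4 without it. The sum of 12 cochlear markers was 55284 to 59556 on B6.CAST noise arrays and 61371 to 62134 on B6.CAST control arrays, against 44326 to 49435 on 129X1/SvJ noise arrays and 49288 to 54488 on 129X1/SvJ control arrays. Of these 12, 0 passed in limma, and the gap was above 0 for 7 with noise and 8 without it. The brightest genes weigh most in this sum, with mean signals of 15724 for Coch and 15741 for Gjb2 against 113 for Tectb. In 2 further lists the sums were apart with noise and overlapped without it. Those of 9 erythroid markers were 20226 to 23513 on B6.CAST noise arrays, against 34755 to 50458 on 129X1/SvJ noise arrays, and those of 6 bone markers 1325 to 1467 against 1789 to 2745 in the same order. By limma 1 of the 9 erythroid markers and 0 of the 6 bone markers passed with noise, and 0 of either list without it. With 2 against 3 arrays, sums may lie apart without a true difference. The sums of 11 macrophage markers were apart without noise, at 6747 to 8791 on B6.CAST control arrays against 3478 to 6188 on 129X1/SvJ control arrays, and overlapped with noise. Of these 11, 1 passed without noise (Ctss, 1.01 ± 0.20, limma adjusted p = 0.0469) and 0 with it. The sums of 8 skeletal muscle markers overlapped in both conditions, though 1 of the 8 passed with noise by limma, lower in B6.CAST. No marker of these lists was at 0 on any array, and the part of cell composition in the strain gaps was not tested.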

How the data were processed

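The values are signal intensities of 1-colour Affymetrix arrays hybridised with biotin-labelled cRNA, per the labels' protocols. The deposited intensities had been scaled array by array, since their mean without the outer 2% at each end is 499.862 to 499.874 on every array. The software behind them is not given in the sources used here. Detection flags were not used. The 129X1/SvJ noise and control arrays of replicate 3 carry the spelling 129XI/SvJ in their labels and were kept in that strain. Of 12488 probe sets, 10855 have 1 gene in the platform annotation, 396 several and 1237 none. RefSeq (GRCm38.p6) gave current symbols for 10839 and promoters for 7 of the 8 genes.

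From the deposited intensities, log2(intensity + 16) was quantile normalized. Testing left out 66 control probe sets and the dimmest 30% of the others, so 8695 remained. A model of 4 group means over all 10 arrays was fitted in limma 3.58.1 under R 4.3.3, with moderation along the intensity trend and Benjamini-Hochberg adjustment over all 8695 (threshold 0.05). The log2 differences understate the change of dim genes. The p-values measure the spread between pools, which the labels call biological replicates.

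The 8 genes and all gene lists were chosen with earlier results of these data known. The named genes are the 8, the 3 closest to each in pattern, pathway list genes that passed (else the 2 with the smallest p in control mice), neighbours that passed, and Nnt. Of the marker lists, Dct, Chil3 and Ctss were named as passing, and 1 erythroid and 1 skeletal muscle marker that passed with noise were only counted. Fbp2 was named after its values were seen. Genes in lists and neighbourhoods were represented by their brightest probe set. Alternatives covered the scaling, pseudocount, filter, variance trend, array weights, each array left out and the replicate number as a block.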

Additional observations from a re-analysis of the deposited data

How the results depend on the processing

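All 450 values of the members' strain gaps under up to 19 alternatives kept their sign. The genes were picked for large gaps on these same arrays, so this says little of stability. The gap difference kept its sign in every alternative for 7 of the 12 probe sets and changed it in at least 1 for the other 5, those of Glo1, Pttg1 101027_s_at, Pam and Pla2g12a 104342_i_at. It passed for none of the 12 in any of them, which says nothing of stability where no probe set on the array passed. Over all probe sets, the count for the strain gap was 126 with noise and 80 without it, for the noise effect 4 in B6.CAST and 44 in 129X1/SvJ, and for the gap difference 0. Leaving out each array in turn gave 26 to 125, 23 to 129, 0 to 5, 22 to 48 and 0 in that order, where the lone array left in a B6.CAST group is assumed to vary like the others. For the noise gap the count was 26 without B6.CAST noise 2, 35 without noise 1 and 80 without 129X1/SvJ noise 2. For the control gap it was 23 and 27 without B6.CAST controls 1 and 2, 33 and 39 without 129X1/SvJ controls 2 and 3, and 129 without 129X1/SvJ noise 1. For noise in B6.CAST it was 5 without 129X1/SvJ noise 3 and 0 to 2 without any other array. For noise in 129X1/SvJ it was 24, 22 and 27 without its controls 1, 2 and 3. Array weights gave 192, 139, 7 and 71. With the replicate block, a term for the replicate number, the counts were 44, 34, 2 and 31. Deviations of same-numbered noise and control arrays from their group means correlated at -0.150, -0.183 and -0.389 in 129X1/SvJ and at -0.169 in B6.CAST. With 2 or 3 arrays in a group these deviations are tied to each other, so they do not settle whether the number pairs the arrays. The noise effect in B6.CAST gave 2 calls with a pseudocount of 1, 2 with one of 64, 1 with no filter and 0 without a variance trend. Without both arrays of high Gapdh ratio, chosen after seeing the data, the counts were 29, 36, 0 and 22. Pairing B6.CAST noise 1 with control 2 and noise 2 with control 1, also chosen after seeing the data, gave 123, 60, 3 and 37. The cause of these changes was not tested.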
